A study of Homo sapiens with 6 samples.

Results

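The BCL2 family decides whether the outer mitochondrial membrane stays closed or is opened to release cytochrome c. Its 10 genes described here were taken by name from a table of 16311 genes, and all 10 had a row. Anti-apoptotic members were BCL2, BCL2L1 (BCL-XL) and MCL1, effectors were BAX and BAK1, and BH3-only members were BBC3 (PUMA), PMAIP1 (NOXA), BID, BIK and BCL2L11 (BIM). The tested libraries came from 3 samples of LNCaP, an established line of androgen-sensitive human prostate adenocarcinoma cells, given a cumulative 40 Gy of what the labels call FIR, an abbreviation left unexplained there, while the series is titled as a study of radiation-induced cells. Their controls were 3 samples of untreated LNCaP. Both groups are the same line, grown in RPMI1640 with 10% serum. The time between the last dose and RNA extraction is not given in the sources used here. Labels number the samples 1 to 3 in each group with the prefix BR, without saying how the cultures were separated. The p-values therefore set group differences against the spread between these samples, which may be technical.

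Anti-apoptotic proteins hold BAX and BAK1 in check by binding the BH3 helix of their partners. BH3-only proteins occupy that groove or act on the effectors directly, and BAX and BAK1 then assemble the pore. In prostate cancer cells BCL2, BCL-XL and MCL1 are the best known survival members. RNA counts do not measure protein, binding or cell death.

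Total reads over all listed genes were 15703483 to 16542096 in FIR libraries and 16805679 to 21004697 in untreated libraries. At these depths 3 reads correspond to 0.139 to 0.194 CPM (read counts put on 1 common library size) and every member stood above that in every library. All 11 prostate luminal markers checked had a row. They summed to 7899 to 8714 CPM in FIR libraries and 7459 to 8070 CPM in untreated libraries. KLK3 and FOLH1 made up most of that sum in untreated cells. Of the 11, 6 rose and 3 fell at an adjusted p under 0.05. That is 81.8% called, against 48.7% of all genes. The prostatic acid phosphatase gene ACPP had 284 to 450 CPM in FIR libraries and 42.0 to 48.0 CPM in untreated libraries, and KLK3, the gene for PSA, had 2075 to 2467 CPM in FIR libraries and 2823 to 3139 CPM in untreated libraries. None of 6 leukocyte markers had a row. Of 8 fibroblast and smooth muscle markers 4 had a row and summed to 14.4 to 19.0 CPM in FIR libraries and 26.5 to 29.7 CPM in untreated libraries. The largest part of the untreated sum was COL1A1, at 3.79 to 6.48 CPM in FIR libraries and 23.1 to 25.2 CPM in untreated libraries, while COL3A1 and ACTA2 rose, COL3A1 to 3.24 to 5.44 CPM in FIR libraries, against 0.325 to 0.469 CPM in untreated libraries. The only endothelial marker of 4 with a row was VWF, at 5.08 to 6.22 CPM in FIR libraries and 28.8 to 40.6 CPM in untreated libraries. The single markers given here were picked after their values were seen, and the part of these markers in the results was not tested. In bulk RNA, fewer cells expressing a gene and less of its RNA per cell cannot be told apart.

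The feature that the 10 genes share is the BH3 segment. The coding bases of that segment are shown for every member because the groove of anti-apoptotic proteins binds the BH3 helix of a partner. They were read from GENCODE 29 (GRCh38) transcripts. Capitals mark the codons of the leucine and of the glycine or alanine with the aspartate that follows. Anti-apoptotic genes come first, then effectors, then BH3-only genes, each 5′ to 3′ on the coding strand.
BCL2: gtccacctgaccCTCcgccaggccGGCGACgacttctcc
BCL2L1: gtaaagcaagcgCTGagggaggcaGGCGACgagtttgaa
MCL1: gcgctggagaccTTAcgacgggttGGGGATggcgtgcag
BAX: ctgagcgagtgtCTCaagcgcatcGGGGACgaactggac
BAK1: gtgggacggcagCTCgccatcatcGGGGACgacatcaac
BBC3: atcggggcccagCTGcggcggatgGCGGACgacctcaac
PMAIP1: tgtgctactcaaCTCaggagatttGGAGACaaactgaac
BID: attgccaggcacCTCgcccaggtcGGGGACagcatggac
BIK: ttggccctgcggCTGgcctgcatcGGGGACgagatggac
BCL2L11: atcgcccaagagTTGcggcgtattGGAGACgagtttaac
The pattern searched was leucine, any 3 residues, glycine or alanine, and aspartate. Each of the 10 proteins held it exactly 1 time, in proteins of 54 (PMAIP1) to 350 (MCL1) codons. It is a loose pattern: 24.4% of 20034 genes with a principal coding transcript held at least 1 match, and 18.5% held exactly 1.

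The family moved in both directions in FIR cells, and within each role some members changed while others did not pass the test. BBC3, BIK, BCL2L1, BAX and BCL2L11 rose, BCL2 and BID fell, and MCL1, BAK1 and PMAIP1 did not pass. That is 5 of 10 higher and 2 of 10 lower, where 25.4% of all 16311 genes were higher and 23.4% lower at the same adjusted p of 0.05 (edgeR's quasi-likelihood test, Benjamini-Hochberg). Libraries of both groups did not overlap for 7 members, against 56.9% of all genes. The median log2 fold change was 0.18 over the 10 members and 0.0082 over all genes. By role it was -0.13 for 3 anti-apoptotic genes, 0.33 for 2 effectors and 0.40 for 5 BH3-only genes. Fold changes are FIR over untreated throughout.

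**Figure D1:**
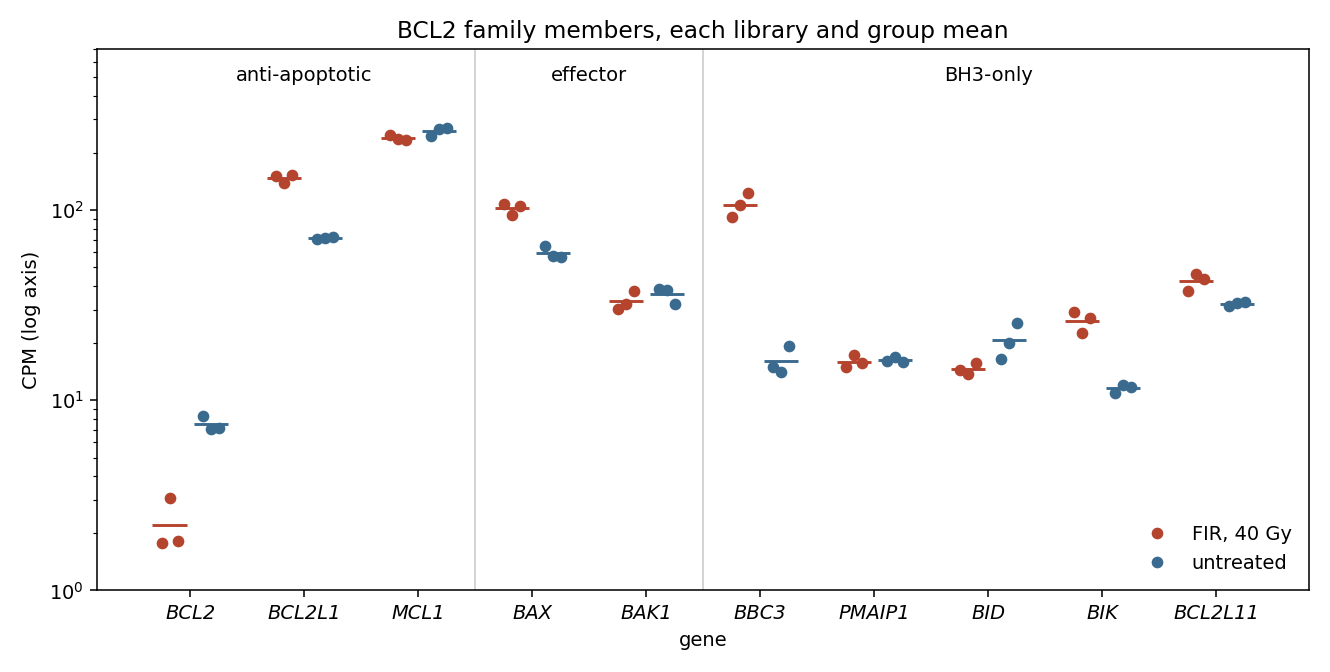
CPM of each member in each library (log axis), with FIR libraries left of untreated libraries and a bar at the group mean, ordered by role. BBC3 shows the widest gap, at 91.6 to 123 CPM in FIR libraries and 14.1 to 19.3 CPM in untreated libraries, while the points of MCL1, BAK1 and PMAIP1 overlap.

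Among the anti-apoptotic genes BCL2 and BCL2L1 moved in opposite directions. BCL2 (chromosome 18, 63123346 to 63320128, hg38), the founding survival gene of the family, had 1.77, 3.04 and 1.82 CPM in FIR libraries, against 8.24, 7.06 and 7.18 CPM in untreated libraries. All FIR libraries lay below all untreated ones, and FIR replicate 2 was the highest of its group. BCL2 fell by 1.76 on the log2 scale (SE 0.23, adjusted p = 1.5e-05), which makes it 3.39 times lower in FIR cells. It was scarce in both groups, with 29 to 47 reads in FIR libraries and 123 to 158 reads in untreated libraries. BCL2L1 (chromosome 20, 31664452 to 31723989), which encodes BCL-XL, had 151, 138 and 154 CPM in FIR libraries, against 70.8, 70.9 and 72.5 CPM in untreated libraries. All FIR libraries lay above all untreated ones, and BCL2L1 rose 2.07 times (95% interval 1.85 to 2.32). Its log2 fold change was 1.05 (SE 0.08, adjusted p = 3.2e-08). MCL1 (chromosome 1, 150574551 to 150579738), which encodes a short-lived survival protein, had 248, 236 and 235 CPM in FIR libraries, against 247, 267 and 270 CPM in untreated libraries. The MCL1 ranges overlapped, and its log2 fold change of -0.13 did not pass (95% interval -0.28 to 0.03, adjusted p = 0.161). BCL2L1 and MCL1 are known to make splice forms of opposite activity, which counts per gene do not separate. The antisense gene ABALON shares 1424 of the 3314 exonic bases of BCL2L1. The strand setting is not given in the sources used here, and ABALON itself had 11 to 35 reads in FIR libraries and 14 to 20 reads in untreated libraries.

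The effectors differed from each other. BAX (chromosome 19, 48954815 to 48961798), a pore-forming protein that moves from the cytosol to mitochondria, had 108, 93.9 and 105 CPM in FIR libraries, against 64.5, 57.2 and 56.5 CPM in untreated libraries. The lowest FIR library stood above the highest untreated library, and BAX rose 1.73 times (log2 fold change 0.79, SE 0.09, adjusted p = 2.8e-06). BAK1 (chromosome 6, 33572547 to 33580293), the effector that resides in the mitochondrial membrane, had 30.1, 32.0 and 37.5 CPM in FIR libraries, against 38.4, 37.9 and 32.3 CPM in untreated libraries. These ranges overlapped, with a log2 fold change of -0.13 (95% interval -0.36 to 0.10, adjusted p = 0.358). The 95% intervals of BAX (0.60 to 0.97) and BAK1 do not meet.

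BH3-only genes held the largest change of the family. BBC3 (chromosome 19, 47220822 to 47232766), which encodes PUMA and binds all the main survival proteins, had 91.6, 106 and 123 CPM in FIR libraries, against 15.02, 14.1 and 19.3 CPM in untreated libraries. Its groups were far apart, and BBC3 rose 6.65 times (95% interval 5.49 to 8.06; log2 fold change 2.73, SE 0.13, adjusted p = 2.4e-10). In the ranking of all genes by log2 fold change it stood at percentile 98.9. BIK (chromosome 22, 43110750 to 43129712), a BH3-only protein of the endoplasmic reticulum, had 29.1, 22.5 and 27.2 CPM in FIR libraries, against 10.95, 12.03 and 11.7 CPM in untreated libraries. The groups of BIK did not overlap either, and it rose 2.27 times (log2 fold change 1.18, SE 0.13, adjusted p = 2.0e-06).

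BCL2L11 (chromosome 2, 111119378 to 111168445), which encodes BIM, had 37.7, 46.1 and 43.3 CPM in FIR libraries, against 31.1, 32.5 and 32.9 CPM in untreated libraries. It rose by the smallest step of the called members, 1.32 times (log2 fold change 0.40, SE 0.10, adjusted p = 0.0032), with no overlap between groups. The antisense gene MIR4435-2HG shares 727 exonic bases with BCL2L11 and had 9 to 16 reads in FIR libraries and 10 to 14 reads in untreated libraries. BID (chromosome 22, 17734138 to 17774770), which caspase-8 cleaves to link death receptors to mitochondria, had 14.4, 13.7 and 15.7 CPM in FIR libraries, against 16.5, 20.1 and 25.6 CPM in untreated libraries. BID fell by 0.50 (SE 0.15, adjusted p = 0.012), with a spread of 4.58 CPM (SD) among untreated libraries and 1.01 CPM among FIR libraries. Its nearest libraries were 15.7 CPM in FIR and 16.5 CPM in untreated cells. PMAIP1 (chromosome 18, 59899948 to 59904306), which encodes NOXA and binds mainly MCL1, had 14.9, 17.2 and 15.7 CPM in FIR libraries, against 16.0, 16.9 and 15.9 CPM in untreated libraries. PMAIP1 had a log2 fold change of -0.03 (95% interval -0.29 to 0.22, adjusted p = 0.851). The 95% intervals of BBC3 (2.46 to 3.01), BAX (0.60 to 0.97) and PMAIP1 do not meet.

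**Figure D2:**
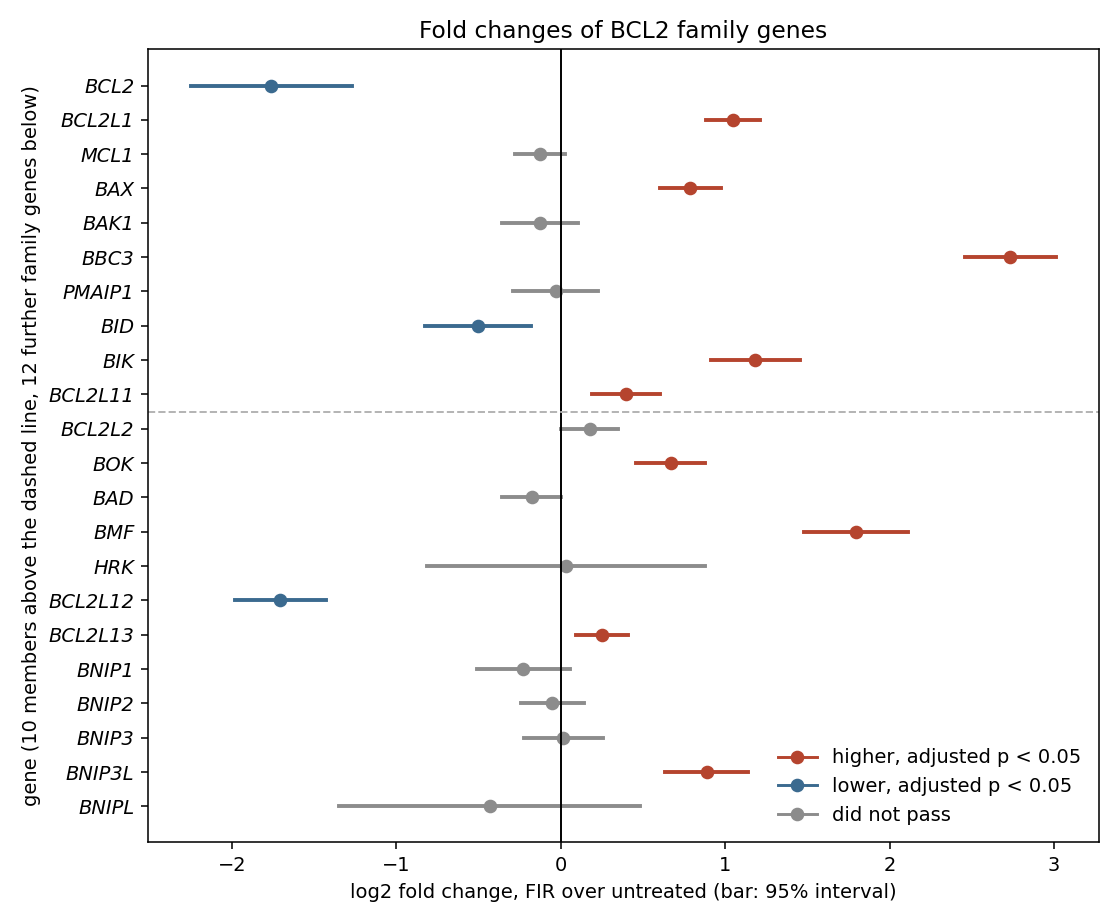
Log2 fold changes (FIR over untreated) of the 10 members and 12 further family genes, with 95% intervals from the edgeR fit; colour gives the call. BBC3 lies highest at 2.73 and BCL2 lowest at -1.76, and the interval of HRK is among the widest, from -0.81 to 0.88.

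Levels of different genes were compared per length, as CPM divided by the kilobases of exon (RPKM). In FIR cells the order of mean RPKM was MCL1 at 54.8, BCL2L1 at 44.6, BAX at 39.6, BBC3 at 33.6, BIK at 27.6, BAK1 at 15.01, PMAIP1 at 7.13, BCL2L11 at 6.36, BID at 3.29 and BCL2 at 0.188. In untreated cells it was MCL1 at 59.8, BAX at 23.0, BCL2L1 at 21.6, BAK1 at 16.4, BIK at 12.2, PMAIP1 at 7.28, BBC3 at 5.07, BCL2L11 at 4.83, BID at 4.67 and BCL2 at 0.637. BBC3 was in place 4 in FIR cells and in place 7 in untreated cells, and MCL1 and BCL2 held the ends in both. Neighbours whose libraries overlapped in FIR cells were BCL2L1 and BAX, BAX and BBC3, BBC3 and BIK, and PMAIP1 and BCL2L11. In untreated cells they were BAX and BCL2L1, BBC3 and BCL2L11, and BCL2L11 and BID. The length used is that of all annotated exons, which is 951 bases for BIK and 11765 for BCL2, whatever transcript the cells use.

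Summed by role, RPKM was higher in FIR cells for each role, most for the BH3-only genes. Those 5 genes summed to 78.0 ± 5.43 RPKM in FIR cells and 34.0 ± 2.19 RPKM in untreated cells (SD, n = 3). Effectors summed to 54.6 ± 3.49 RPKM in FIR cells and 39.3 ± 2.93 RPKM in untreated cells, and anti-apoptotic genes to 99.6 ± 3.32 RPKM in FIR cells and 82.0 ± 3.05 RPKM in untreated cells. As shares of the 10 genes, BH3-only genes made up 32.2%, 33.8% and 34.8% in FIR libraries, against 20.8%, 21.8% and 23.1% in untreated libraries. Anti-apoptotic genes made up 44.0%, 43.3% and 41.4% in FIR libraries, against 51.5%, 53.1% and 53.7% in untreated libraries. The effector share overlapped, at 22.9% to 23.8% in FIR libraries and 23.2% to 27.7% in untreated libraries. The higher sums did not extend to every gene of a role. Mean RPKM of BCL2L1, BAX, BBC3, BIK and BCL2L11 was higher in FIR cells, while that of MCL1, BCL2, BAK1, PMAIP1 and BID was lower. In the BH3-only sum, BBC3 had 33.6 RPKM in FIR and 5.07 in untreated cells, and BIK 27.6 in FIR and 12.2 in untreated cells. All role sums describe RNA, weigh each gene by its level and were not tested.

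Inside the anti-apoptotic sum, the make-up differed between groups. MCL1 held 53.6% to 56.2% of it in FIR libraries and 71.9% to 73.5% in untreated libraries, and BCL2L1 held 43.5% to 46.3% in FIR libraries and 25.8% to 27.2% in untreated libraries. BCL2 held under 1% in every library, 0.147% to 0.270% in FIR libraries and 0.722% to 0.892% in untreated libraries. Inside the BH3-only sum BBC3 held 38.4% to 45.9% in FIR libraries and 12.99% to 16.7% in untreated libraries. The often quoted ratio of BAX to BCL2 was 278, 140 and 262 in FIR libraries, against 35.6, 36.8 and 35.8 in untreated libraries, per length. A ratio within a library does not depend on library scaling, but its denominator here rests on the few reads of BCL2.

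**Figure D3:**
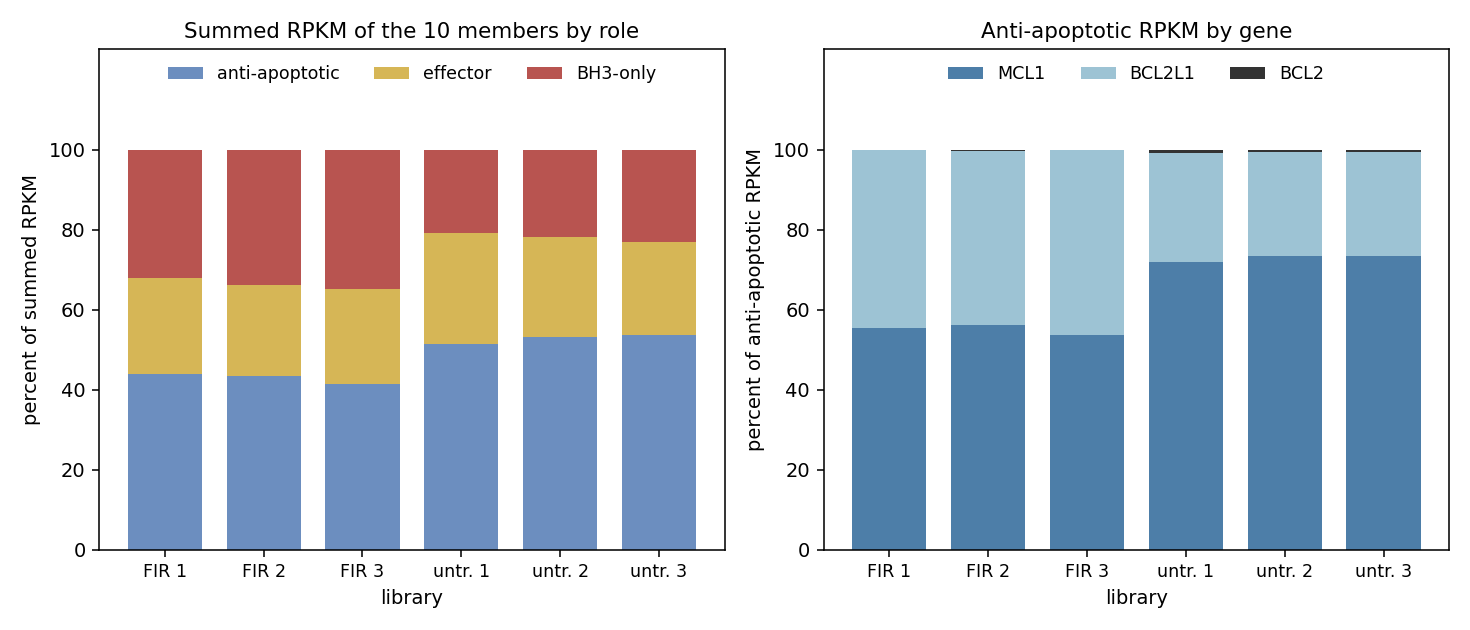
Left, percent of the summed RPKM of the 10 members by role in each library; right, percent of the anti-apoptotic RPKM by gene, with FIR libraries left of untreated (untr.) libraries. The BH3-only share is 32.2% to 34.8% in FIR libraries and 20.8% to 23.1% in untreated libraries, and the BCL2L1 share is 43.5% to 46.3% in FIR libraries and 25.8% to 27.2% in untreated libraries.

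Of 17 further family genes listed, 12 had a row, of which 4 rose and 1 fell while 7 did not pass; their median log2 fold change was 0.02. The 5 calls are 41.7% of the 12, against 48.7% of all genes. Family is used loosely here. BCL2L12, BCL2L13, BNIP1, BNIP2, BNIP3, BNIP3L and BNIPL were listed as BCL2-like or BH3-like genes, and 42.9% of these 7 were called. BMF, a BH3-only protein held at actin-based myosin V motors, had 36.5, 31.7 and 42.2 CPM in FIR libraries, against 9.13, 9.70 and 13.1 CPM in untreated libraries. It rose by 1.80 (SE 0.15, adjusted p = 1.2e-07), second to BBC3 among the 22 family genes with a row. BOK, a relative of BAX and BAK1, had 56.0, 56.9 and 59.9 CPM in FIR libraries, against 32.5, 34.8 and 41.6 CPM in untreated libraries, and rose by 0.67 (SE 0.10, adjusted p = 4.8e-05). BNIP3L, a receptor for the removal of mitochondria by autophagy, rose by 0.89 (SE 0.12, adjusted p = 1.8e-05), while its relative BNIP3 had 0.02 (SE 0.11, adjusted p = 0.918). BCL2L13, another such receptor, rose by 0.25 (SE 0.07, adjusted p = 0.012), but without untreated replicate 2 its adjusted p was 0.074. BCL2L12 fell by 1.71 (SE 0.13, adjusted p = 4.8e-08), with 10.95, 10.4 and 11.3 CPM in FIR libraries, against 42.0, 33.2 and 31.5 CPM in untreated libraries. BCL2L2, which encodes the survival protein BCL-w, had 0.18 (adjusted p = 0.084) and BAD, a BH3-only protein controlled by phosphorylation, had -0.18 (adjusted p = 0.099). HRK, BNIP1, BNIP2 and BNIPL did not pass, at 0.03, -0.23, -0.05 and -0.43. BCL2A1, BCL2L10, BCL2L14, BCL2L15 and BCL2L11P1 had no row and are not analysed here.

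Around the family, 35 of 38 listed pathway genes had a row, and 13 rose, 5 fell and 17 did not pass. These 18 calls are 51.4% of the genes with a row, near the 48.7% of all genes called in either direction, and without untreated replicate 2, 8 rose. Of 10 genes for membrane partners and protein turnover, 4 rose and 1 fell. FBXW7, the substrate receptor of a ubiquitin ligase that has MCL1 among its targets, rose by 1.23 (SE 0.11, adjusted p = 3.1e-07), at 32.4 to 39.2 CPM in FIR libraries and 14.5 to 16.3 CPM in untreated libraries. TMBIM6, known as BAX inhibitor, had the highest CPM of that list and rose by 0.50 (SE 0.07, adjusted p = 2.9e-05). Of 10 genes of the apoptosome and of proteins released with cytochrome c, 3 rose, 1 fell and 6 did not pass. CYCS, cytochrome c itself, fell by 0.61 (SE 0.08, adjusted p = 1.8e-05), with 232, 219 and 202 CPM in FIR libraries, against 341, 349 and 304 CPM in untreated libraries. DIABLO, which relieves caspases of their inhibitors, rose by 0.66 (SE 0.21, adjusted p = 0.019) and was scarce in both groups, at 5.09 to 6.85 CPM in FIR libraries and 2.98 to 4.69 CPM in untreated libraries.

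Of 4 inhibitors of apoptosis with a row 2 rose and 2 did not pass, a share called near the 48.7% of all genes. The list was XIAP, BIRC2, BIRC3, BIRC6 and BIRC7, the last without a row. BIRC5 (survivin) was not on it, so these counts do not cover all inhibitors of apoptosis. BIRC6 and BIRC2 rose by 0.33 (SE 0.08, adjusted p = 0.0044) and 0.27 (SE 0.09, adjusted p = 0.019), and XIAP, a direct caspase inhibitor, had -0.03 (adjusted p = 0.8005). Of 11 transcription regulators of family genes with a row, 4 rose, 3 fell and 4 did not pass, against 25.4% of all genes higher and 23.4% lower. FOXO3, a forkhead factor known to act on BBC3 and BCL2L11, rose by 1.24 (SE 0.08, adjusted p = 3.8e-09), with 334, 319 and 315 CPM in FIR libraries, against 128, 138 and 145 CPM in untreated libraries. E2F1, a cell cycle factor that can act on BH3-only genes, fell by 4.04 (SE 0.22, adjusted p = 1.0e-09), with 6.85, 4.60 and 3.90 CPM in FIR libraries, against 108, 86.7 and 59.1 CPM in untreated libraries. ATF4, a stress factor known to act on PMAIP1, had the highest CPM of the regulators and fell by 0.56 (SE 0.09, adjusted p = 1.2e-04).

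**Figure D4:**
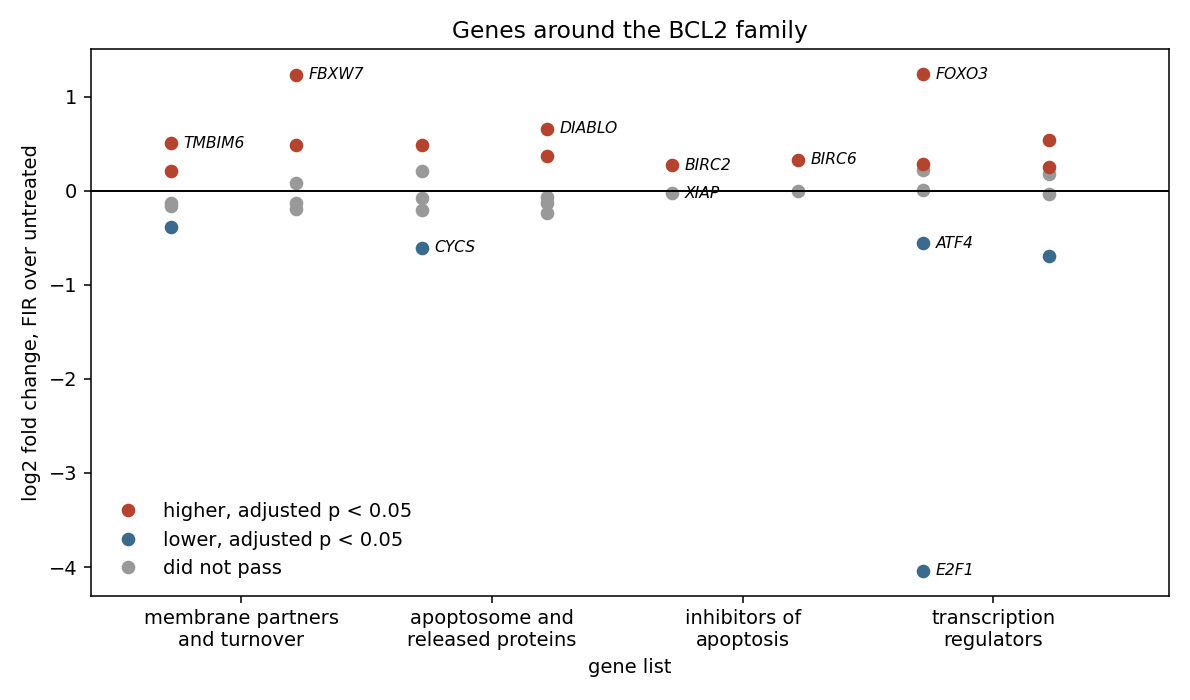
Log2 fold changes (FIR over untreated) of the 35 pathway genes with a row in 4 lists; each point is 1 gene, colour gives the call, and the genes named by the selection rule are labelled. Apart from E2F1 at -4.04 the points lie between -0.70 and 1.24.

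The promoter windows of BAX and BBC3 are shown because both genes rose and both windows hold the E-box CACGTG, which reads the same on both strands and is given in capitals. They are the 250 bases before the start in RefSeq (GRCh38.p14), 5′ to 3′ on the strand of the gene: chr19:48954625-48954874 on the plus strand for BAX and chr19:47232668-47232917 on the minus strand for BBC3.
BAX: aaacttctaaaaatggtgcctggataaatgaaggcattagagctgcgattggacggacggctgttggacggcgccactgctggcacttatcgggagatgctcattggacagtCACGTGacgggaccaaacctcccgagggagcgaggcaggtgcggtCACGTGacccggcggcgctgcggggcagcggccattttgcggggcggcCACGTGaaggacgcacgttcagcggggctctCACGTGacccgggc
BBC3: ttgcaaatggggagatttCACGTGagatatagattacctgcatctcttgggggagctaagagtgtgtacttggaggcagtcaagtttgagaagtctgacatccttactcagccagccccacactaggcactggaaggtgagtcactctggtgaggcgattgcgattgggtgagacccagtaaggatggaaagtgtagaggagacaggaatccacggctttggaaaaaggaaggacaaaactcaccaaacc
The BAX window held 4 copies, beginning 138, 93, 45 and 14 bases before the start, and the BBC3 window held 1, beginning 232 bases before it. Both RefSeq starts lie inside the gene spans given above, which begin at 48954815 for BAX and reach 47232766 for BBC3. The BAX copies at 45 and 14 bases therefore lie within that span of BAX. Of 35116 such windows, 2228 held at least 1 copy and 5 held 4 or more. Windows were present for 8 of the 10 members, 13 in all; 2 of the 5 windows of BID, which fell, also held 1 copy. BCL2L1, with 2 windows, and BCL2L11 rose as well but held no copy. The windows of BCL2, BAK1 and PMAIP1 held none either. The pair shown was picked after the copies were counted. These are matches of letters, not sites shown to be bound.

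Across the 6 libraries, the genes whose centred log2 CPM lay nearest to the most changed member of each role were the following. For BBC3 they were VWDE, OLFM2 and PRSS23, with root mean square differences of 0.07, 0.13 and 0.13 log2 units. For BAX they were BLCAP, WWP1 and NCDN, each at 0.04 log2 units. For BCL2 they were C12orf75, CEBPD and HAUS1, at 0.10, 0.13 and 0.13 log2 units. With 2 groups of libraries, likeness of this kind carries the difference between the groups.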

How the data were processed

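RNA of 3 FIR-treated and 3 untreated LNCaP samples was sequenced. The authors deposited 1 table with raw read counts per gene and sample, per the file headers, beside p-values and log2 values of their own (fold changes, CPM, RPKM), also deposited by the authors. Named in the submitters' processing notes, without role or setting, are the build hg38, the aligner STAR 2.5, edgeR 3.20.8, Subread 1.6.2 with featureCounts, and bcl2fastq. How strands, low genes and the annotation were handled is not stated in these sources; the lowest gene still had 0.605 CPM in its 3 highest libraries.

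Count columns were matched to samples by title; the number of unmapped sample columns was 0. TMM-scaled counts were fitted with glmQLFit and glmQLFTest (edgeR 4.0.16, R 4.3.3) with group as the only term. Benjamini-Hochberg adjustment ran over 16311 genes, and calls needed an adjusted p under 0.05; filterByExpr (minimum count 10) dropped 0 genes. SE is the log2 fold change over the square root of F, and RPKM uses the deposited gene length. Log2 CPM for profile likeness used a prior count of 2. Without spike-ins, every change is relative to other genes.

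The members and lists were chosen with earlier results of these data known. All members and all further family genes with a row were named, and from each other list the gene of highest CPM and the 2 called genes of largest change whose mean reached 1 CPM. Other listed genes are counted with their list only. No pair of libraries in a group agreed within sampling noise. All 10 members matched GENCODE 29 by identifier, 3 with the same version; sequences are from GENCODE 29 and RefSeq. In the authors' deposited table the same 7 members pass the threshold in the same direction.

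Other settings tried were scaling by RLE, by upper quartile or by library size alone, the tools DESeq2 1.42.0 and limma-voom (limma 3.58.1), the filter left off or set to 1 CPM in 3 libraries, a block for the replicate number, rows of a symbol summed, each library left out, and plain reads for the shares.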

Additional observations from a re-analysis of the deposited data

How the results depend on the processing

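The 7 called members kept their direction and call under all 15 alternatives: BBC3 ranged from 2.62 to 2.85, BIK from 1.10 to 1.28, BCL2L1 from 0.99 to 1.09, BAX from 0.73 to 0.85, BCL2L11 from 0.33 to 0.47, BCL2 from -2.05 to -1.62 and BID from -0.65 to -0.35, with adjusted p up to 0.042 for BID and 0.023 for BCL2L11. MCL1 passed under library-size scaling (-0.18, adjusted p = 0.049), with adjusted p up to 0.313 elsewhere; that scaling moved the median of all genes to -0.05. PMAIP1 ran from -0.091 to 0.014 with 1 library left out, positive without FIR_40Gy replicate 1, and passed under none of the 15. With 1 library left out BAK1 ran from -0.22 to -0.060 and BNIPL from -0.85 to -0.098, neither passing. BAD passed under library-size scaling (-0.23, adjusted p = 0.033). Signs of genes that did not pass turned for HRK (-0.022 with library-size scaling, -0.048 with limma-voom, -0.012 with the replicate block, and -0.48 to 0.27 with 1 library left out), BNIP2 (-0.13 to 0.026 with 1 library left out) and BNIP3 (-0.038 with library-size scaling, -0.11 to 0.18 with 1 library left out). The cause was not tested. Library-size scaling gave 2 lower further family genes and 8 lower pathway genes; leaving out 1 library gave 8 to 11 higher and 5 to 7 lower pathway genes.

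As plain reads without division by length, anti-apoptotic genes held 53.3% in FIR and 63.9% in untreated cells, effectors 18.5% in FIR and 18.0% in untreated cells, and BH3-only genes 28.2% in FIR and 18.2% in untreated cells, and the ratio of BAX to BCL2 was 49.9 in FIR and 7.93 in untreated cells. Over all genes 3401 to 4162 were higher and 3368 to 4346 lower. For libraries with the same number, correlations of deviations from the group mean were 0.03, -0.05 and -0.07, and 0 of 6 libraries correlated best with their own number. The replicate block gave 3988 higher and 3668 lower genes, left BBC3 at 2.73 and changed no member's call. Dropping the filter changed nothing, since it had removed 0 genes. BCL2 rests on 29 to 47 reads in FIR libraries; its SE of 0.23 was the largest among the 10 members, and the ratio of BAX to BCL2 ran from 201 to 270 in FIR cells with 1 FIR library left out.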
